A study of Mus musculus with 2 samples.

Results

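C1q macrophages are tumor-infiltrating macrophages that transcribe the chains of complement component C1q, the molecule that starts the classical complement pathway. Here they were taken as barcodes with at least 500 UMIs, at least 3 of the 6 genes C1qa, C1qb, C1qc, Csf1r, Adgre1 and Mrc1 detected, at least 0.2% of their UMIs from these 6 genes, and no UMI of Flt3, Cd3e or Cd3d. The cells were thus selected on measured levels of these genes. The rule found 1399 of 24282 barcodes, 731 of 11945 in library 2 and 668 of 12337 in library 1. The levels of the 6 genes are given as a description of that choice. The tumors were KPC tumors, a mouse model of pancreatic ductal adenocarcinoma, grown in the pancreas (orthotopic) and treated either with EIPA at 10 mg/kg, an amiloride derivative that blocks sodium-proton exchange and with it macropinocytosis, or with the vehicle DMSO. Per the labels' protocols, 4 flash-frozen tumors were pooled for each sample, dissociated, fixed and profiled with gene-specific probes on the 10x platform. Age, sex and strain of the mice are not given in the sources used here. Both samples lie in 1 deposited matrix whose barcodes end in 1 of 2 library numbers, and no label ties a number to a treatment, so the libraries are set side by side and a ratio is library 2 over library 1 as an order only. Each library is 1 pooled sample. No test between treatments or libraries can therefore be made, and the intervals given are exact 95% intervals that cover counting error only.

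As background, macrophages are phagocytes that clear dying cells, degrade their contents in lysosomes and present peptides on MHC class II. C1q binds antibody complexes and dying cells, and macrophages are a major source of it in tissue, unlike most complement proteins, which come from the liver. In pancreatic tumors, macrophages descend both from blood monocytes, which carry the chemokine receptor Ccr2, and from cells that settled in the pancreas before birth. Tumor macrophages are commonly described along axes of antigen presentation, lipid handling with lysosomal genes, inflammatory signalling and tissue repair.

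The 3 C1q genes that anchor the rule lie next to each other on chromosome 4 of the GRCm38 build, at chr4:136880126-136886200 (C1qb), chr4:136889801-136892936 (C1qc) and chr4:136895916-136898844 (C1qa). The stretches before the gene starts of C1qb and C1qc are shown because their genes anchor the rule. They come from RefSeq (GRCm38.p6, minus strand, chr4:136886201-136886450 and chr4:136892937-136893164), and capitals mark GAGGAA or its reverse complement TTCCTC, core letters of sites bound by PU.1, a master regulator of myeloid cells.
C1qb: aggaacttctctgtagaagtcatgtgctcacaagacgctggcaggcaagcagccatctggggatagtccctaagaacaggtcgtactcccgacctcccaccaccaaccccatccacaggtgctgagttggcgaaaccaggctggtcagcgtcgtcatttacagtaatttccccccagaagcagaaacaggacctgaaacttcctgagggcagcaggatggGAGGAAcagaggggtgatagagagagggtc
C1qc: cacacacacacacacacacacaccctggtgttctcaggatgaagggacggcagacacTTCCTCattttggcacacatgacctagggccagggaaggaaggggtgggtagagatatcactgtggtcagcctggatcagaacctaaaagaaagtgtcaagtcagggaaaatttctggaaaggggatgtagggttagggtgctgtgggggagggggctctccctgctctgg
Each stretch holds 1 match. Of 32851 mouse promoters, 7639 (23.3%) hold the motif on either strand in the 250 bases before the gene start, so the match is a description. Spi1, the gene of PU.1, stood at 144 CPM (UMIs per 1000000 UMIs of the group) in C1q macrophages of library 2 and 114 CPM in those of library 1, against 3.58 and 3.13 CPM in barcodes of those libraries with no immune UMI.

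C1q macrophages held 4767995 UMIs in library 2 and 4854171 in library 1, with medians of 3525 and 3594.5 UMIs and 2047 and 2095.5 genes per cell. Their median mitochondrial share was 1.14% in library 2 and 0.722% in library 1. They carried RNA of other cells: over 10 epithelial markers, the median level was 39.5% (library 2) and 49.4% (library 1) of that in barcodes with no immune UMI, which are barcodes with no UMI of the 6 rule genes, Ptprc, Tyrobp, Csf3r, Flt3, Cd3e or Cd3d (1918 in library 2 and 2445 in library 1). The keratin gene Krt8 stood at 1057 and 942 CPM. The libraries shared 225 barcode sequences, 2 of them among C1q macrophages. Scrublet's highest scores, taken at the expected rate for each library, marked 1139 of 11945 barcodes in library 2 and 1218 of 12337 in library 1 as possible doublets. Among the C1q macrophages they marked 114 of 731 (15.6%) and 91 of 668 (13.6%), a larger share than among all barcodes of either library.

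The epithelial share was highest in the deepest barcodes of both libraries. Barcodes with at least 10000 UMIs (109 in library 2, 140 in library 1) had 0.410% and 0.448% of their UMIs from epithelial markers, and those with at least 5000 and under 10000 UMIs (163 and 114) had 0.267% and 0.277%. In the 3 bins under 5000 UMIs the share ran from 0.183% to 0.214% in library 2 and from 0.168% to 0.252% in library 1, with no order by depth. The 6 rule genes took 0.413% and 0.408% in the deepest bin and 1.19% and 1.13% in barcodes with under 1000 UMIs. That difference is partly fixed by the choice of cells, since a shallow barcode with 3 rule genes detected has a high share of them. The threshold also sits among deep barcodes: the 40 and 54 cells just inside it (0.20 to 0.25% of UMIs from the rule genes) had medians of 14349 and 13184 UMIs, and Tyrobp, a signalling adaptor of myeloid receptors, at 339 and 165 CPM. The 66 and 88 barcodes just outside (0.15 to 0.20%) had medians of 12102.5 and 11020 UMIs and Tyrobp at 203 and 146 CPM.

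**Figure D1:**
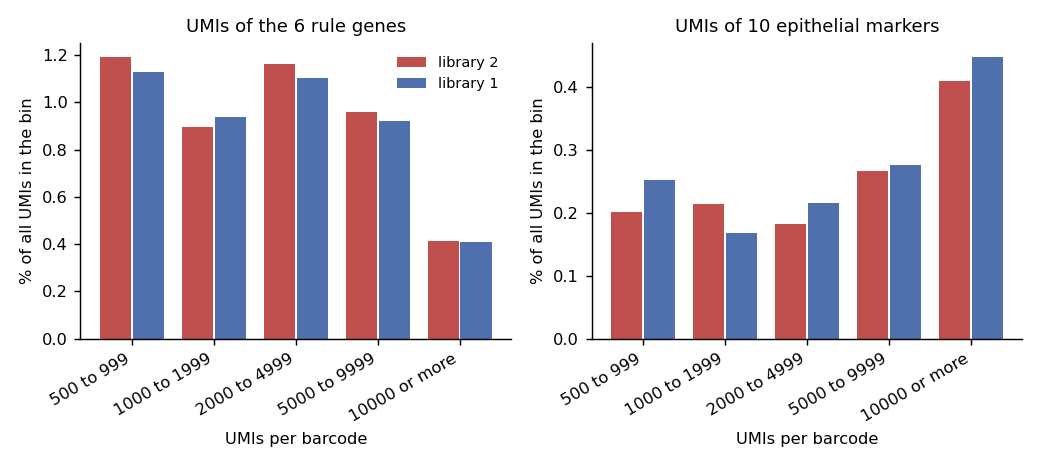
UMIs of the 6 rule genes (left) and of 10 epithelial markers (right) as a percent of all UMIs of the C1q macrophages in 5 bins of UMIs per barcode, with a bar for library 2 and a bar for library 1. In the deepest bin the epithelial markers reach 0.410% (library 2) and 0.448% (library 1), and the rule genes, which chose the cells, stand at 0.413% and 0.408%.

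C1q macrophages made up 6.12% of the barcodes of library 2 (interval 5.70 to 6.56) and 5.41% of those of library 1 (5.02 to 5.83). The ratio was 1.13, with an interval of 1.02 to 1.26 that leaves out variation between tumors. All 6 rule genes were detected in 297 and 298 of the cells, and only 3 of them in 92 and 72. As values that the rule used, C1qa stood at 1421 and 1453 CPM, C1qb at 3178 and 2529 CPM, C1qc at 771 and 817 CPM, the growth factor receptor gene Csf1r at 983 and 786 CPM, Adgre1 (F4/80) at 141 and 162 CPM and the mannose receptor gene Mrc1 at 584 and 448 CPM.

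Markers that the rule did not use went with the label. Of the 14 pan-macrophage genes that could be compared, 13 stood at least 3-fold above the barcodes with no immune UMI in both libraries. Of all comparable genes, 7.01% (606 of 8644) did so in library 2 and 6.22% (539 of 8664) in library 1. Cd68, a lysosomal glycoprotein gene used as a macrophage marker, stood at 211 and 197 CPM, against 18.8 and 15.9 CPM in barcodes with no immune UMI. Fcgr1, the high-affinity IgG receptor, stood at 150 and 139 CPM against 1.52 and 1.99 CPM. Mertk, a receptor for dying cells, stood at 197 and 192 CPM against 5.36 and 5.60 CPM. The exception was Cd14, the co-receptor for endotoxin, at 150 and 150 CPM against 148 and 163 CPM.

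Genes that define neutrophils and dendritic cells stood below their levels in barcodes marked for those cells. Such genes chose the marked barcodes, so that order was largely set by the choice. The summed level of 10 neutrophil genes was 449 and 373 CPM in C1q macrophages, against 9355 and 8607 CPM in neutrophil-marked barcodes (78 and 66), and Ly6g had 0 UMIs, with an upper limit of 0.774 and 0.760 CPM. Barcodes with no immune UMI, where Csf3r is 0 by choice, had a neutrophil sum of 16.3 and 13.9 CPM, below that of C1q macrophages. Most of the sum in C1q macrophages was Mmp9 (213 and 163 CPM) and Csf3r (136 and 142 CPM), and the calprotectin gene S100a8 stood at 30.6 and 11.1 CPM. The summed level of 12 dendritic genes was 502 and 289 CPM, against 2998 and 2047 CPM in Flt3-positive dendritic-marked barcodes (79 and 25). In barcodes with no immune UMI it was 182 and 157 CPM, also below that of C1q macrophages. Flt3 is 0 by the rule, and Clec9a, a receptor of conventional dendritic cells, stood at 45.1 and 13.6 CPM. T-cell genes summed to 66.5 and 40.4 CPM, with Cd3e and Cd3d at 0 by the rule, against 22.6 and 10.4 CPM in barcodes with no immune UMI. A UMI of a dendritic marker was found in 78 and 28 of the cells and a UMI of a neutrophil marker in 85 and 71.

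**Figure D2:**
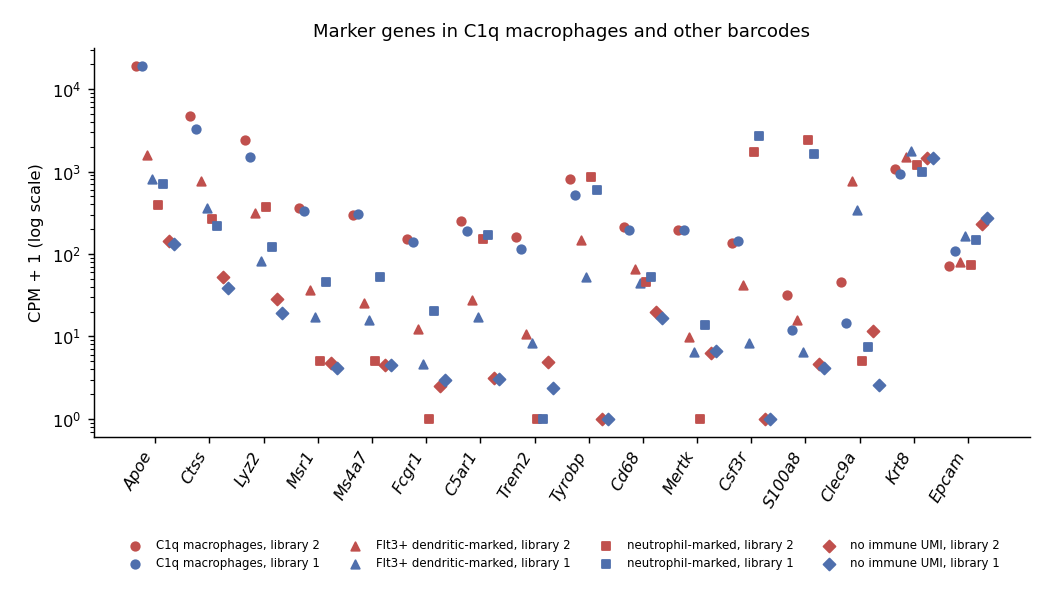
CPM plus 1 (log axis) of 16 genes in C1q macrophages (circles), Flt3-positive dendritic-marked barcodes (triangles), neutrophil-marked barcodes (squares) and barcodes with no immune UMI (diamonds), red for library 2 and blue for library 1. Apoe, at 19289 and 19295 CPM in C1q macrophages, and the genes to its right up to Mertk lie above the no-immune diamonds, while Krt8 and Epcam lie below them. Csf3r and S100a8 helped to choose the neutrophil-marked barcodes, Clec9a the dendritic-marked ones, and Tyrobp and Csf3r are 0 by choice in barcodes with no immune UMI.

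Beyond the rule, 15 genes were named by rule as those with the highest fold over all other barcodes, taken as the lower of both libraries. They were Apoe, Msr1, Fcrls, Lyz2, C5ar1, Fcgr1, Ms4a7, Fcgr4, Ctss, Trem2, Ms4a4a, Tifab, Cd300c2, Ms4a6c and Aoah. Apoe, the lipid carrier of cholesterol efflux, stood 55.0-fold and 49.9-fold above the other barcodes, and Fcrls, an Fc-receptor-like gene known from mouse microglia, 48.6-fold and 47.2-fold. Aoah, which inactivates bacterial lipopolysaccharide, closed the 15 at 35.0-fold and 33.7-fold. The levels of several hardly differed between the libraries: Apoe had a log2 ratio of -0.00, Ms4a7 (298 and 301 CPM), a membrane protein of macrophages, -0.01, and Cd300c2 (154 and 152 CPM) 0.02. Lyz2, the lysozyme of myeloid cells, had the highest ratio of the 15, with 2386 CPM (2342 to 2430) in library 2 and 1507 CPM (1473 to 1542) in library 1, log2 0.66.

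The contrast between the libraries was read against all genes. Genes at 20 CPM or more in 1 library (8927) were called when their intervals lay apart and the ratio of CPM plus 1 reached 1.5-fold. Of these genes 2.69% (240) were higher and 2.35% (210) lower in library 2, 5.04% together. Among 520 macrophage-enriched genes, which stood at least 3-fold above barcodes with no immune UMI in both libraries, 61 (11.7%) were higher and 1 (0.192%) lower, 11.9% together, the lower gene being Ms4a14 (21.0 and 33.4 CPM), named after its values were seen. The median log2 ratio was 0.27 over the enriched genes and -0.01 over all. Enriched genes held 14.7% of the UMIs of C1q macrophages in library 2 and 12.5% in library 1, while the epithelial level was 39.5% and 49.4%. With the RNA of barcodes with no immune UMI subtracted the enriched median was 0.03, in cells of at most 5000 UMIs also 0.03, and in cells with under 0.1% epithelial UMIs (193 and 180) -0.08. Of the cells with at least 10000 UMIs, only 4 of 109 and 3 of 140 had under 0.1% epithelial UMIs. That setting thus also leaves out most deep cells, and the parts of depth and epithelial RNA in it cannot be told apart. The enriched median was 0.33 with the highest doublet scores removed, 0.30 at a rule-gene share of at least 0.1% and 0.28 without cells that held a dendritic marker UMI. At a rule-gene share of at least 0.5% it was 0.04, as a mean of per-cell shares 0.08 and in cells thinned to 1000 UMIs 0.12. Without cells that held a neutrophil marker UMI it was 0.23, and with the libraries scaled to the enriched genes 0.05. Under the remaining settings it ran from 0.25 to 0.28. A ratio near 0.27 in an enriched gene is therefore at the level of its class. Of 59 genes called higher that were named by rule or belong to a list, 22 missed 1.5-fold both with the libraries scaled to the enriched genes and with that RNA subtracted. They were Abcg1, Adam8, Batf3, C3, Ccl8, Cd200r1, Cd63, Clec10a, Col1a2, Csf2ra, Gbp5, Gpnmb, H2-D1, H2-Q7, Ifi30, Lyz2, Mitf, Psap, Siglec1, Tap1, Tap2 and Tyrobp. With the libraries scaled to the enriched genes, 90 genes were higher and 891 lower, so 9.17% of the calls were higher, against 53.3% as scaled to all UMIs.

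**Figure D3:**
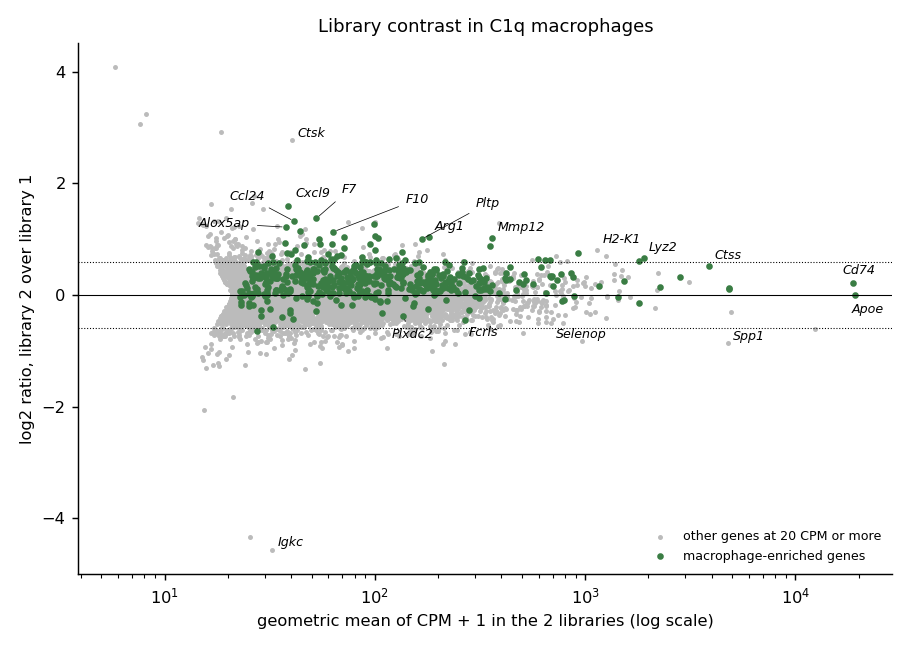
Log2 ratio of library 2 over library 1 against the geometric mean of CPM plus 1 (log axis) for the 8927 genes at 20 CPM or more in 1 library, with the 520 macrophage-enriched genes in green and dotted lines at 1.5-fold. The green points center at 0.27, most labelled green genes lie above the upper line, and Fcrls and Plxdc2 lie below 0.

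Genes were named for this contrast by rule, up to 12 on each side. The 12 highest in library 2 were Cxcl9, F7, Ccl24, Hist1h2ap, Alox5ap, Hist1h1b, Ccr2, F10, Hist1h1a, Ccl6, Ccl9 and Arg1. Cxcl9, an interferon-induced chemokine that draws T cells, stood at 66.3 CPM (59.2 to 74.0) in library 2 and 21.2 CPM (17.3 to 25.7) in library 1, log2 1.60. Barcodes with no immune UMI had Cxcl9 at 14.4 and 3.19 CPM, log2 1.88, so the same direction was present outside C1q macrophages. Ccr2, the monocyte chemokine receptor, stood at 64.8 CPM (57.8 to 72.5) and 28.6 CPM (24.1 to 33.8), log2 1.15. These 2 genes, with F7, F10 and Hist1h2ap, stayed past 1.5-fold under all 19 alternative settings. Ccr2 was among the leading genes of sub-cluster 6, 1 of 7 Leiden sub-clusters, which held 108 cells of library 2 and 37 of library 1. Within that sub-cluster Ccr2 stood at 207 and 313 CPM, the other direction, and in the other cells at 49.0 and 20.9 CPM. Ccr2 was itself among the enriched genes that formed the sub-clusters, so these levels are a description of that grouping.

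The genes of 2 coagulation factors were both higher in library 2. F7 stood at 83.9 CPM (75.9 to 92.5) in library 2 and 31.7 CPM (26.9 to 37.2) in library 1, log2 1.38, and F10 at 92.9 CPM (84.5 to 102) and 41.8 CPM (36.3 to 48.0), log2 1.13. Factor VII starts the extrinsic clotting cascade with tissue factor, and factor X is its substrate. In barcodes with no immune UMI F7 was at 0.715 and 0.482 CPM and F10 at 0.804 and 0.903 CPM. At 1000 UMIs per cell, F7 had a UMI in 7.37% and 4.57% of C1q macrophages and F10 in 8.41% and 4.24%, against 0.12% and 0.04% (F7) and 0.06% and 0.22% (F10) of barcodes with no immune UMI. Without thinning the shares were 18.1% and 12.0% for F7 and 17.9% and 11.2% for F10.

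Arg1, which breaks down arginine and marks alternatively activated macrophages, stood at 259 CPM (245 to 274) in library 2 and 125 CPM (115 to 136) in library 1, log2 1.04. It was 0.34 in cells of at most 5000 UMIs and also missed 1.5-fold as a mean of per-cell shares and in thinned cells. Mmp12, macrophage elastase, stood at 511 and 251 CPM, log2 1.02, and 0.39 in cells of at most 5000 UMIs. Alox5ap, needed to make leukotrienes, stood at 56.4 and 23.7 CPM, log2 1.22, and 0.24 in cells with under 0.1% epithelial UMIs. Within sub-cluster 6, which Alox5ap helped to form as an enriched gene, it stood at 177 and 157 CPM and in the other cells at 42.9 and 20.1 CPM. The histone genes Hist1h2ap (116 and 46.1 CPM), Hist1h1b (130 and 56.0 CPM) and Hist1h1a (62.1 and 29.5 CPM) were near or below the level of the other barcodes (1.05-fold and 1.29-fold at most), so they do not set these cells apart from all others. They did stand above barcodes with no immune UMI, which had Hist1h2ap at 55.4 and 32.4 CPM, Hist1h1b at 49.5 and 26.3 CPM and Hist1h1a at 30.5 and 19.0 CPM. The other barcodes went in the same direction, with Hist1h2ap at 142 and 55.4 CPM, Hist1h1b at 124 and 43.3 CPM and Hist1h1a at 68.3 and 33.0 CPM.

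Only 8 genes qualified as lower in library 2: Selenop, Fcrls, Plxdc2, Sorl1, Adamdec1, Cd72, H2-Aa and Cxcl16. None reached 1.5-fold. Selenop, a selenium carrier of resident macrophages, stood at 573 CPM (552 to 595) in library 2 and 817 CPM (791 to 842) in library 1, log2 -0.51, and was also at 290 and 377 CPM in barcodes with no immune UMI. Fcrls stood at 230 CPM (217 to 244) and 313 CPM (298 to 329), log2 -0.44, with only 1.79 and 2.89 CPM in those barcodes. Plxdc2 (118 and 154 CPM) had a log2 ratio of -0.38 and Cd72 (162 and 193 CPM), an inhibitory C-type lectin, -0.25. All 8 kept their sign under the 19 alternatives, and in cells with under 0.1% epithelial UMIs Plxdc2 was at -1.02, Adamdec1 at -1.08 and Cd72 at -0.90.

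Of 14 chemokine genes at 20 CPM, 7 were higher in library 2 (Ccl2, Ccl6, Ccl7, Ccl8, Ccl9, Ccl24 and Cxcl9) and 1 lower (Cxcl14), with a median of 0.56, where 2.69% of all genes were higher and 2.35% lower, with a median of -0.01. Ccl24, an eotaxin that draws eosinophils, stood at 64.4 and 25.1 CPM, log2 1.32. Ccl6 and Ccl9, related mouse CC chemokines, stood at 143 and 68.4 CPM (log2 1.05) and at 102 and 48.8 CPM (1.05). Ccl8 stood at 106 and 69.4 CPM (0.60), and Ccl2, which draws Ccr2-bearing monocytes, at 26.2 and 9.89 CPM (1.32). Cxcl16 (747 and 804 CPM), Ccl3 and Ccl4 did not reach 1.5-fold, and Ccl12 was at 0.22. In cells with under 0.1% epithelial UMIs Ccl24 was at 0.39, Ccl6 at 0.33 and Ccl9 at 0.51, all short of 1.5-fold. Across all settings the list's median ran from 0.32 to 0.72. Single cells weighed on these sums: 3 cells held 25.5% of the Ccl9 UMIs in library 2 and 31.6% in library 1.

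Genes for antigen presentation split by class. Of 9 MHC class II genes, 1 was higher in library 2, the thiol reductase Ifi30 (745 and 475 CPM, log2 0.65), and none lower, with a median of 0.21. Cd74, the invariant chain, stood at 20238 and 17458 CPM (0.21), H2-Ab1 at 5065 and 4618 CPM (0.13) and H2-Aa at 1724 and 1893 CPM (-0.13). The list's median ranged from -0.33 to 0.31 over the settings, so it has no stable direction. Of 11 MHC class I genes, 6 were higher (H2-K1, H2-D1, H2-Q4, H2-Q7, Tap1 and Tap2), where 2.69% of all genes were, and none lower, with a median of 0.69. Of the 6, H2-D1, H2-Q7, Tap1 and Tap2 missed 1.5-fold both with the libraries scaled to the enriched genes and with RNA subtracted, and Tap1, a peptide transporter, was at -0.12 in cells with under 0.1% epithelial UMIs. H2-K1 stood at 1508 and 858 CPM in C1q macrophages and at 1019.7 and 477 CPM in barcodes with no immune UMI, so the same direction was present outside them. With that RNA subtracted H2-K1 was at log2 0.57, and the class I median ranged from 0.28 to 0.71.

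Receptor and complement genes were read against all genes, of which 2.69% were higher and 2.35% lower in library 2. The list medians were 0.47 for complement, 0.34 for Fc and ITAM receptors, 0.21 for scavenger receptors and 0.17 for receptors of dying cells. Of 13 Fc and ITAM receptor genes 1 was higher, Tyrobp (799 and 514 CPM, log2 0.64), and none lower. All 13 were macrophage-enriched, a class with a median of 0.27 and 11.7% of genes called higher, so this list is near the level of its class. Of 10 complement genes 2 were higher, C1s1 (27.7 and 12.8 CPM) and C3 (204 and 125 CPM), and both stood at similar or higher levels in barcodes with no immune UMI (73.7 and 22.8 CPM for C1s1, 250 and 120 CPM for C3). The anaphylatoxin receptor genes C5ar1 (253 and 189 CPM, 0.42) and C3ar1 (156 and 107 CPM, 0.54) were enriched in C1q macrophages but did not reach 1.5-fold. Siglec1, a sialic-acid lectin, was 1 of 3 of 8 scavenger receptor genes called higher, at 87.2 and 52.9 CPM (0.71), and 0.32 as a mean of per-cell shares. Of 12 genes for receptors of dying cells 1 was called, Cd36, at 24.1 and 1.65 CPM from 115 and 8 UMIs, of which 3 cells held 47.8% and 62.5%.

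Lysosome genes were mostly close between the libraries, while several lipid genes differed in either direction. Of 21 lysosome genes, 1 was higher, Psap (2224 and 1462 CPM, log2 0.60), the precursor of sphingolipid activators, and none lower, with a median of 0.19. Among all genes 2.69% were higher and 2.35% lower, so 1 of 21 is near that share. Cathepsin genes stood well above barcodes with no immune UMI: Ctss at 4655 and 3248 CPM against 51.1 and 37.1 CPM, and Ctsc at 1676 and 1400 CPM against 197 and 218 CPM. Of 15 genes of cholesterol efflux and lipid handling, 2 were higher, Abcg1 (59.6 and 39.1 CPM, 0.59), an exporter of cholesterol, and Pltp (235 and 117 CPM), a phospholipid transfer protein. Pltp was at 0.19 in cells with under 0.1% epithelial UMIs. Of 14 lipid-associated genes, 3 were higher, Gpnmb (174 and 102 CPM, 0.77), Cd63 (934 and 621 CPM, 0.59) and Cd36 (3.25), and 1 lower, Spp1. Spp1, osteopontin, stood at 3529 and 6436 CPM in C1q macrophages, log2 -0.87 and -0.42 with the RNA of barcodes with no immune UMI subtracted, below the 5582 and 10021 CPM of barcodes with no immune UMI, so it does not set these cells apart.

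Genes of tissue-resident macrophages were represented in part. The list summed to 1467 and 1551 CPM in C1q macrophages, against 461 and 536 CPM in barcodes with no immune UMI. Of 14 measured, 7 reached 20 CPM, and 1 was higher in library 2, Fcna (48.4 and 13.4 CPM), where 2.69% of all genes were. Of these 7, 4 stood at least 3-fold above barcodes with no immune UMI in both libraries. Of all comparable genes, 7.01% did so in library 2 and 6.22% in library 1. Stab1, a scavenger receptor of resident macrophages, stood at 521 and 444 CPM and Folr2, a folate receptor, at 20.1 and 15.7 CPM. Timd4 (1.47 and 0.412 CPM), Vsig4 (0.839 and 0 CPM) and Clec4f (0 and 0.206 CPM), genes of long-lived and liver macrophages, had 7 UMIs or fewer in each library.

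Genes of macropinocytosis and sodium-proton exchange, the process EIPA acts on, did not differ by 1.5-fold. Of 15 at 20 CPM, none was called in either direction by the interval rule, and the median was 0.06. Among all genes 5.04% were called, so the lack of a call does not set this list apart. Slc9a9, an exchanger of endosomes, stood at 59.6 and 56.7 CPM in C1q macrophages against 2.32 and 1.44 CPM in barcodes with no immune UMI. Slc9a3 had 0 and 1 UMIs. Hypoxia and glycolysis genes likewise gave no call among 13, with a median of -0.23.

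Of 13 proliferation genes at 20 CPM, 6 were higher in library 2 (Top2a, Cdk1, Ccna2, Birc5, Rrm2 and Pcna), where 2.69% of all genes were, and none lower, with a median of 0.55 that ranged from 0.28 to 0.81. None of the 13 was macrophage-enriched, and the list summed to 711 and 478 CPM in C1q macrophages and to 996 and 603 CPM in all other barcodes, the same direction. In barcodes with no immune UMI it summed to 546 and 483 CPM, also the same direction but a smaller difference. Cdk1 stood at 34.2 and 16.1 CPM, and at log2 0.23 in cells with under 0.1% epithelial UMIs, and Top2a at 67.5 and 44.3 CPM. Few cells carried them: at 1000 UMIs per cell, Top2a had a UMI in 4.87% and 4.08% of C1q macrophages and in 3.51% and 2.01% of barcodes with no immune UMI. Of 5 dendritic genes at 20 CPM, 4 were higher (Clec9a, Ccl17, Batf3 and Itgae), where 2.69% of all genes were, with a median of 1.28 and a dendritic sum of 502 and 289 CPM. In cells with under 0.1% epithelial UMIs the direction turned for Clec9a (-0.0223), Batf3 (-0.21), Itgae (-4.00) and the list's median (-0.0223), but not for Ccl17 (2.23). These were only 193 and 180 cells with few deep ones among them, so such ratios can rest on few UMIs. The part of dendritic genes in the other ratios was not tested beyond leaving out the cells with a dendritic marker UMI, which gave 254 genes higher and 217 lower.

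**Figure D4:**
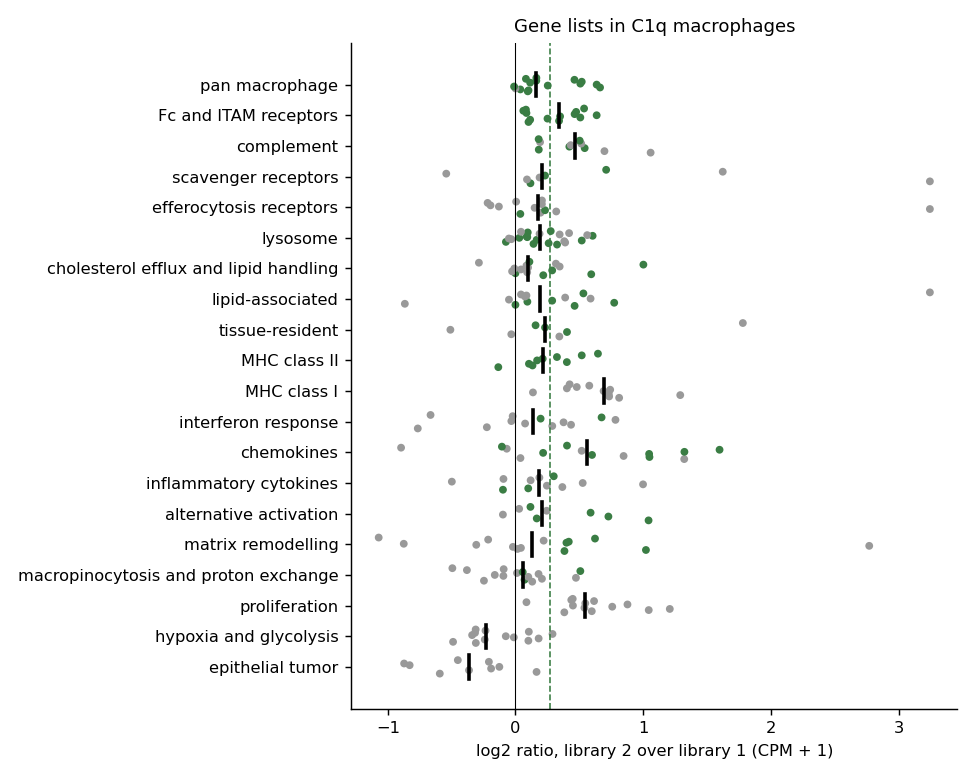
Log2 ratio of library 2 over library 1 for the genes at 20 CPM or more of 20 lists, with green points for macrophage-enriched genes, grey points for other genes, a black bar at each list's median, a solid line at 0 and a dashed line at the enriched median of 0.27. The medians of MHC class I (0.69), chemokines (0.56) and proliferation (0.55) lie furthest to the right and that of the epithelial tumor list (-0.36) furthest to the left.

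C1q macrophages differed among themselves along genes seen in both libraries. The 3 genes used below were chosen after the values were seen, so their contrasts are descriptions. Cells were thinned to 1000 UMIs, which kept 678 of 731 cells of library 2 and 613 of 668 of library 1. An Mmp12 UMI was then found in 114 cells of library 2 and 85 of library 1. In cells with an Mmp12 UMI, Arg1 stood at 947 CPM (777 to 1144) in library 2 and 659 CPM (498 to 856) in library 1, against 147 CPM (117 to 182) and 112 CPM (85.1 to 144) in cells without. Gpnmb, a lysosomal glycoprotein of lipid-laden macrophages, stood at 632 and 388 CPM with Mmp12 and 83.3 and 81.4 CPM without. Tnfrsf9, the costimulatory receptor 4-1BB, stood at 395 and 306 CPM with and 39.0 and 41.7 CPM without. In both libraries Arg1, Gpnmb and Tnfrsf9 thus each stood higher in cells with an Mmp12 UMI. How many single cells held all of these genes was not counted.

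Further genes differed with Mmp12 in either direction. Itgax (CD11c) stood at 982 and 882 CPM with Mmp12 and 468 and 420 CPM without, and Plet1 at 219 and 200 CPM with and 42.6 and 32.2 CPM without. Complement C4b stood at 158 and 165 CPM with and 418 and 328 CPM without, and Fcrls at 158 and 306 CPM with and 408 and 555 CPM without. Apoe was near level, at 26482 and 28118 CPM with and 25427 and 26954.5 CPM without. The cells with Mmp12 had medians of 4075 and 4019 UMIs before thinning and 0.239% and 0.290% epithelial UMIs, and those without had 3892.5 and 3896.5 UMIs and 0.342% and 0.385%. The part of these differences in the gene contrasts was not tested.

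**Figure D5:**
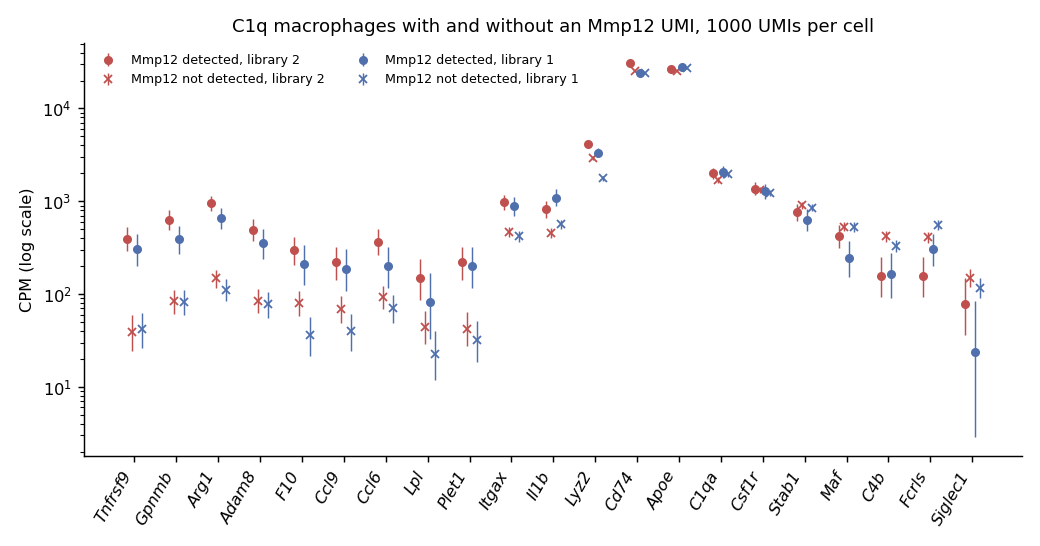
CPM (log axis) of 21 genes in C1q macrophages thinned to 1000 UMIs, with circles for cells with an Mmp12 UMI and crosses for cells without, red for library 2 and blue for library 1, and bars for exact Poisson intervals. Tnfrsf9, Gpnmb and Arg1 lie far apart in both libraries (Arg1 at 947 and 659 CPM with Mmp12, 147 and 112 CPM without), and C4b and Fcrls lie lower in cells with Mmp12.

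Cells with a UMI of F13a1, the clotting factor XIII subunit of tissue macrophages and monocytes, were few, 21 in library 2 and 22 in library 1. In them Stab1 stood at 2524 and 2727 CPM, against 831 and 755 CPM in cells without. Folr2 stood at 381 and 227 CPM against 30.4 and 20.3 CPM. Maf, a transcription factor of resident macrophages, stood at 1190 and 1500 CPM against 493 and 452 CPM. MHC class II ran the other way, with Cd74 at 13714 and 15682 CPM against 26656 and 24355 CPM and H2-Ab1 at 3048 and 2955 CPM against 6633 and 6541 CPM. Intervals of these 5 genes lay apart in both libraries.

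Cells with a Ccr2 UMI, 49 in library 2 and 26 in library 1, had more MHC class II RNA. Cd74 stood at 33796 and 45538 CPM, against 25668 and 23092 CPM in cells without, and H2-Ab1 at 9388 and 12346 CPM against 6299 and 6150 CPM. Fcrls stood at 143 and 115 CPM against 383 and 538 CPM, with intervals apart in both libraries. Arg1 had only 4 and 1 UMIs in these cells. In library 2 that was 81.6 CPM (22.2 to 209), against 297 CPM (256 to 343) in cells without, and in library 1 the interval of 0.974 to 214 CPM overlapped the 160 to 233 CPM of cells without. Folr2 had 0 UMIs in both, with upper limits of 75.3 and 142 CPM, above the 44.5 and 29.0 CPM of cells without, so a difference in Folr2 was not detectable at this depth.

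Leiden clustering on the 520 enriched genes gave 7 sub-clusters of 81 to 326 cells, all with cells of both libraries. They are given by number, since the same genes formed them. Sub-cluster 5 (99 and 69 cells) was led by Mmp9, Gpnmb, Tnfrsf9, Mmp12 and Arg1, and its neutrophil genes summed to 1505 and 1559 CPM, Mmp9 being 1 of them. Sub-cluster 4 (88 and 80) was led by F13a1, Stard8, Stab1 and Siglec1, with MHC class II genes summing to 11731 and 7534 CPM, the lowest of the 7. Sub-cluster 6 (108 and 37) was led by Plet1, Wdfy4 and Ccr2, and its dendritic genes summed to 1530 and 1049 CPM, the highest of the 7, with Clec9a at 192 and 78.3 CPM. Sub-cluster 3 (89 and 123) was led by Ccl8, Fcrls and C4b. Sub-cluster 2 (157 and 142), led by Adamdec1, had a median of 7713 UMIs and held 86 of the cells marked as possible doublets. As a value the rule used, C1qb ran from 2449 to 4398 CPM over the 7 in library 2 and from 2273 to 3592 CPM in library 1.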

How the data were processed

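The deposited values are whole UMI counts per gene and barcode in 1 matrix of both samples, for which the submitters' processing notes name Cell Ranger 8.0.0 and the mm10 build. Libraries were told apart by the number after the barcode hyphen. The probe kit counts probe ligations, so levels were compared between groups of barcodes and not between genes. UMIs were summed over barcodes of a group and library and scaled to 1000000 UMIs (CPM), with exact Poisson 95% intervals, and shares have Clopper-Pearson intervals. Log2 ratios use CPM plus 1. Genes were called at 20 CPM in 1 library, intervals apart and 1.5-fold. With 1 library per treatment and cells that are not replicates, no p-value is given. Genes named for the library contrast had at least 50 CPM, intervals apart, at most 50% of the higher library's UMIs in 3 cells, and at least 2 times the level of barcodes with no immune UMI there; up to 12 on each side were taken. Identity genes had at least 100 CPM in both libraries. List members at 20 CPM may also be named. Neutrophil-marked barcodes had at least 3 of 7 neutrophil genes and 0.2% of UMIs from them, and dendritic-marked ones a Flt3 UMI and 2 other dendritic genes. Doublets were left in, and Scrublet's top scores at 0.8% per 1000 barcodes were removed as an alternative. Python 3.11.15, scanpy 1.11.5, leidenalg 0.10.2 and, for TMM factors, edgeR 4.0.16 in R 4.3.3 were used. The calling step was tested on simulated counts. The members, the 37 gene lists and the rules were chosen with earlier results of these data known. List members not measured here, and Aldoa, whose symbol names more than 1 entry, were left out.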

Additional observations from a re-analysis of the deposited data

How the results depend on the processing

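The share ratio of 1.13 stayed between 1.04 and 1.23 under its 8 alternatives, within its counting interval of 1.02 to 1.26. The counts of 240 genes higher and 210 lower moved by over 1.5 times with the libraries scaled to macrophage-enriched genes (90 and 891), with no filter on low genes (413 and 320), with 10 CPM added (137 and 105), in cells thinned to 1000 UMIs (98 and 110) and in cells of at most 5000 UMIs (135 and 122). The lower count alone moved to 134 with a share of at least 0.1%, to 580 with the highest doublet scores removed and to 93 in cells with under 0.1% epithelial UMIs. Of the calls, 53.3% were higher, against 34.4% with those doublets removed and 64.5% in the cells low in epithelial UMIs; scaling to enriched genes (9.17%) shifts the median of all genes to -0.24. The settings that scale to enriched genes or leave out cells with dendritic or neutrophil marker UMIs were chosen after seeing the data. Cells with under 0.1% epithelial UMIs were few (193 and 180), and only 4 and 3 of them had at least 10000 UMIs. In these cells the sign turned for Ace (0.52), Batf3 (-0.21), Clec9a (-0.0223), Itgae (-4.00), Tap1 (-0.12), Thbs1 (0.37) and the median of the dendritic list (-0.0223). It also turned for Col1a2 with RNA subtracted (-1.17), for Cxcl14 (0.16), Pecam1 (-0.0256) and Thbs1 (0.0783) in cells of at most 5000 UMIs, and for Ptgs2 as a mean of per-cell shares (-0.39), at a share of at least 0.5% (-1.01) and without doublets (-0.28). The cause was not tested. Each library is 1 pooled sample, so leaving out a replicate was not possible. No paired analysis was possible because the labels give no replicate numbers and each group has 1 sample. Depth limits genes below about 20 CPM.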

Other observations

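Of 12 inhibitory and costimulatory genes at 20 CPM in C1q macrophages, 7 stood at least 3-fold above barcodes with no immune UMI in both libraries, where 7.01% of all comparable genes did so in library 2 and 6.22% in library 1. In library 2, 1 of the 12 was called higher, where 2.69% of all genes were, Pdcd1lg2, which encodes the PD-1 ligand PD-L2, at 61.5 and 32.5 CPM (log2 0.90), and none lower. Its log2 ratio was 0.33 in thinned cells. Cd274, the gene of PD-L1, stood at 64.8 and 54.4 CPM against 9.39 and 7.47 CPM in barcodes with no immune UMI, and Vsir, the checkpoint ligand VISTA, at 349 and 297 CPM against 9.21 and 7.35 CPM. Il10, an immunosuppressive cytokine, was at 0.419 and 0.206 CPM.

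Interferon genes went in both directions between the libraries. Of 12 at 20 CPM, Gbp2 (79.1 and 45.5 CPM, log2 0.78) and Gbp5 (59.8 and 37.1 CPM, 0.67), guanylate-binding proteins induced by interferon gamma, were higher in library 2, while Isg15 (22.9 and 39.6 CPM, -0.77) and Rtp4 (16.8 and 27.2 CPM, -0.67), targets of type I interferon, were lower. The other 8 genes were not called, and the list's median was 0.14. Among all genes 2.69% were higher and 2.35% lower. Gbp5 missed 1.5-fold both with the libraries scaled to the enriched genes and with the RNA of barcodes with no immune UMI subtracted. Isg15 was at -0.13 with the highest doublet scores removed. Inflammatory cytokine genes were close, with Il1b at 351 and 328 CPM (0.10) and Il1a at 62.3 and 66.7 CPM (-0.10), against 6.26 and 6.68 CPM (Il1b) in barcodes with no immune UMI.

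Some of the widest ratios came from few cells, in genes chosen after their values were seen. Ctsk, a bone-resorbing cathepsin, stood at 104 and 14.4 CPM, but 3 cells held 90.3% of its 497 UMIs in library 2. Igkc, the kappa antibody chain, stood at 5.66 and 157 CPM, and 3 cells held 87.0% of its 764 UMIs in library 1. Ccl17 stood at 154 and 62.6 CPM, with 60.2% and 77.0% of its UMIs in 3 cells.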
